A study of Arabidopsis thaliana with 9 samples.

Results

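The genes described here are 10 Arabidopsis thaliana genes of light signalling, chosen by name and locus code: PIF3, PIF4, PIF5, PIL1, HFR1, HY5, HYH, ELIP1, ELIP2 and ATHB2. All 10 were found among the 32833 loci of the count table, and all 10 were among the 21059 genes with enough reads to test. The data are RNA sequencing counts from 9 libraries of whole wild-type seedlings of the Col-0 ecotype, with 3 libraries in each of 3 groups. Seedlings grew for 5 days on solid half-strength MS medium and for 5 more days in liquid medium of the same kind, in all groups. The mock group is labelled as having no treatment, the flg22 group received the flagellin peptide flg22 at 100 nM, and the 2-AA group received 2'-aminoacetophenone at 200 uM. The bacterial peptide flg22 is the part of flagellin that the plant receptor FLS2 perceives, and 2-AA is a quorum sensing molecule, a small signal that bacteria release. How long the treatments lasted, at what hour and in what light the seedlings were harvested, and what mock seedlings received is not given in the sources used here. Replicates are described as biological but not as separate cultures. Each p-value therefore reflects the spread between libraries within groups, estimated over all 9 libraries together, and that spread may be technical.

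Plants read light through phytochromes, which sense red and far-red light, and through blue and ultraviolet receptors. The PHYTOCHROME INTERACTING FACTORS (PIFs) are bHLH transcription factors that promote growth in darkness and shade and that active phytochrome marks for degradation. HY5 and its close relative HYH are bZIP transcription factors with largely the opposite role: they accumulate in light, when the ubiquitin ligase COP1 no longer removes them, and drive seedling greening. PIFs and HY5 can bind the same short promoter element, the G-box (CACGTG). The transcripts of PIF4 and PIF5 are also under control of the circadian clock.

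Library totals ran from 26644996 to 33195007 counts, so that 3 counts, taken as the detection floor, correspond to 0.0904 to 0.113 CPM (read counts scaled to equal library size). Chloroplast transcripts took 0.0743 to 0.241% of counts in mock replicate 3, flg22 replicate 2 and 2-AA replicate 2, against 0.0211 to 0.0281% in the other 6 libraries. Mitochondrial transcripts were also highest in those 3 libraries, at 0.0350 to 0.125% against 0.00805 to 0.0110% in the other 6. The seedling labels were checked against tissue markers. The summed level of 4 shoot markers was 20685 to 21325 CPM in mock, 18196 to 19485 with flg22 and 15129 to 16989 with 2-AA. Most of that sum was the Rubisco gene RBCS1A, and the other members went opposite ways: the antenna genes LHCB2.1 (log2 fold change -3.13 with flg22 and -3.21 with 2-AA) and CAB3 (-1.66 and -2.56) fell, while the carbonic anhydrase gene CA1 rose by 1.14 and 0.64. CAB3 (log2 fold change -0.91), CA1 (-0.50) and RBCS1A (-0.18) were also lower with 2-AA than with flg22. The sum of 7 root markers was 1817 to 2131, 1273 to 1651 and 1655 to 1818 CPM, and that of 3 guard cell markers 33.5 to 35.1, 33.4 to 35.5 and 34.5 to 41.8 CPM. Most of the root sum was PYK10. Of the 7 root markers, 5 were called lower with flg22 and 1 with 2-AA (edgeR adjusted p under 0.05), where 29.4% and 31.1% of all genes tested were called lower. TIP2;3 (-1.17), EXPA7 (-0.99) and COBL9 (-0.96) fell with flg22, and COBL9 was the 1 that fell with 2-AA (-0.81). TIP2;3 and EXPA7 were 0.99 and 1.06 higher with 2-AA than with flg22. The part of these marker changes in the levels of the 10 genes was not tested. No marker was at 0 in any library. In whole seedlings, fewer cells of a type and less RNA per cell cannot be told apart.

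With flg22, the growth-promoting PIF4 and PIF5 and the light-stress genes ELIP1 and ELIP2 fell by 2.55 to 4.53 on the log2 scale, while PIF3 and HY5 rose by 1.15 and 1.01 on the same scale. With 2-AA the same 4 genes fell, by 2.22 to 4.54 on the log2 scale, and PIF3, HY5 and HFR1 rose. Of the 10 genes, edgeR called 2 higher and 7 lower with flg22 (adjusted p under 0.05), and 3 higher and 7 lower with 2-AA. Among all genes tested, 59.2% were called with flg22 (29.8% higher, 29.4% lower) and 62.2% with 2-AA (31.2% higher, 31.1% lower), so a call alone says little about these 10 genes. At least a 2-fold change and a call were found for 7 of the 10 with flg22 and for 8 with 2-AA, against 19.0% and 21.9% of all genes tested. The 10 genes were chosen with earlier results of these data known, so their shares here and below describe the set and do not test it. The median log2 fold change over the 10 genes was -1.60 with flg22 and -0.94 with 2-AA, where the medians over all genes tested were -0.0042 and -0.0026. Both comparisons use the same 3 mock libraries. The libraries did not overlap between mock and treatment for 9 of the 10 genes with flg22 and for 10 with 2-AA, against 65.5% and 67.9% of all genes tested.

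**Figure D1:**
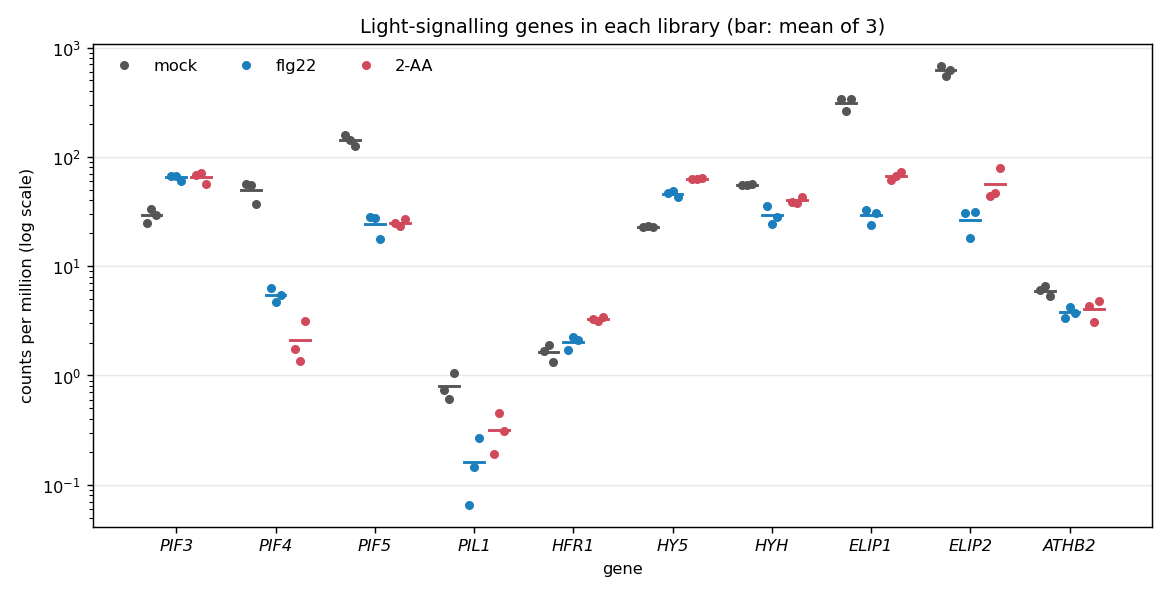
Level of each of the 10 genes in each library, in CPM on a log axis, with mock in dark grey, flg22 in blue and 2-AA in red; points are libraries and bars are means of 3. ELIP1, ELIP2, PIF4 and PIF5 lie far below mock in all 6 treated libraries, and HY5 and PIF3 lie above it.

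Compared with flg22 directly, 2-AA gave higher ELIP1, ELIP2, HY5 and HYH and lower PIF4. These 5 of 10 genes were called, 4 higher and 1 lower, where 15.8% of all genes tested were called (7.86% higher, 7.89% lower). The log2 fold changes of the 10 genes ran from -1.37 for PIF4 to 1.2 for ELIP1, and the 2 groups did not overlap for 6 of the 10, against 32.6% of all genes tested. A call with at least a 2-fold difference was made for 3 of the 10, PIF4, ELIP1 and ELIP2, against 3.16% of all genes tested. When 2-AA replicate 2 was left out, the number of genes called in this comparison fell from 3317 to 2204, and 4 to 6 of the 10 genes were called as each library was left out in turn.

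**Figure D2:**
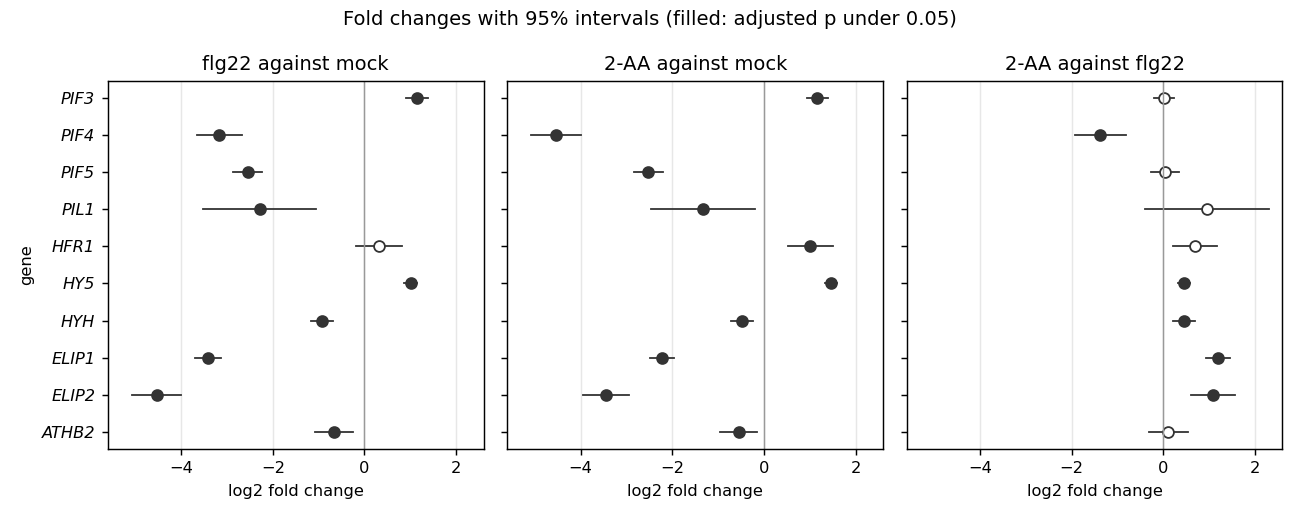
Log2 fold change of the 10 genes in the 3 comparisons, from edgeR over all 9 libraries; lines are 95% intervals, filled points have an adjusted p under 0.05 and open points do not. In the direct comparison PIF4 lies at -1.37 and ELIP1 at 1.2, while PIF3 and PIF5 lie at 0.017 and 0.030.

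The PIF genes did not move as a block. PIF3 (AT1G09530, chr1:3075768-3079654, plus strand in the TAIR10.1 annotation) encodes the first PIF found as a phytochrome partner and acts on greening and growth in darkness. It stood at 24.7, 33.2 and 29.7 CPM in mock replicates 1 to 3, at 66.5, 67.2 and 60.6 with flg22 and at 68.6, 71.4 and 56.7 with 2-AA. All 6 treated libraries lay above all mock libraries, and the treated groups overlapped. The log2 fold change was 1.15 (SE 0.11, edgeR adjusted p = 9.65e-07) with flg22 and 1.17 (SE 0.11, adjusted p = 6.94e-07) with 2-AA. Between the treatments it was 0.017, with a 95% interval from -0.21 to 0.24 (adjusted p = 0.94).

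PIF4 (AT2G43010, chr2:17886101-17889087, plus strand) promotes stem elongation and is the PIF best known for the growth response to warmth. It was measured at 56.0, 54.9 and 37.3 CPM in mock, at 6.33, 4.70 and 5.45 with flg22, and at 1.75, 1.37 and 3.15 with 2-AA. The 3 groups did not overlap, with mock highest and 2-AA lowest. PIF4 fell by 3.17 on the log2 scale with flg22 (SE 0.23, edgeR adjusted p = 7.83e-08), a level 8.98-fold lower. It fell by 4.54 with 2-AA (SE 0.25, adjusted p = 5.79e-09), a level 23.3-fold lower. Against flg22, the log2 fold change with 2-AA was -1.37 (SE 0.26, adjusted p = 0.00304), and it was -1.80 without 2-AA replicate 3 (adjusted p = 0.000427). Tested against a 1.5-fold difference, this last call ended (adjusted p = 0.0545).

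PIF5 (AT3G59060, chr3:21827905-21830837, minus strand) overlaps with PIF4 in role, in shade growth and in growth before dawn. Its levels were 159, 144 and 126 CPM in mock, 27.9, 27.4 and 17.9 with flg22, and 24.6, 23.2 and 26.8 with 2-AA. Mock lay above all treated libraries, and the treated groups overlapped. The fall was 2.55 with flg22 (SE 0.14, edgeR adjusted p = 9.67e-09), which is 5.87-fold lower, and 2.52 with 2-AA (SE 0.14, adjusted p = 7.29e-09), which is 5.75-fold lower. The treatments differed by 0.030, with a 95% interval from -0.28 to 0.34 (adjusted p = 0.921). So PIF4 was lower with 2-AA than with flg22, whereas the interval for PIF5 leaves out a difference of the size seen for PIF4. The longest run of bases that exons of PIF4 and PIF5 share is 23, and how reads that match both genes were counted is not known from the labels.

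The 250 bases before the annotated starts of PIF4 and PIF5 are shown because the pair fell together. Capitals mark a G-box, and the sequences are 5′ to 3′ on each gene's strand, read from RefSeq's TAIR10.1 genome (chr2:17885851-17886100 for PIF4 and chr3:21830838-21831087 for PIF5).
PIF4: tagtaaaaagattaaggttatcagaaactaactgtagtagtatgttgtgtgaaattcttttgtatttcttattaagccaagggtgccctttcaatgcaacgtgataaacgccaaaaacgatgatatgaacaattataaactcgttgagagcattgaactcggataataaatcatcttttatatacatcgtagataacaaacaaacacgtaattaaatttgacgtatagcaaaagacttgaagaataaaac
PIF5: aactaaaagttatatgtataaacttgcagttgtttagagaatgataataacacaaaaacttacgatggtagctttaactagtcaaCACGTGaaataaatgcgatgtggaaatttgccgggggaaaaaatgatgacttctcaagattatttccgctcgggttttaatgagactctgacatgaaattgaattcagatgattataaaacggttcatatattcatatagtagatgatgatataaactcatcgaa
The PIF5 window holds a G-box from 165 to 160 bases before the start, and the PIF4 window holds no CACGTG. Of 27443 windows of this length before protein-coding genes, 6.49% hold a G-box. All 10 genes were searched on both strands for 4 elements, with these letters: the G-box, the PBE-box CACATG, the evening element AAAATATCT and the CCA1-binding site AAAAATCT. Among the 10 genes, 2 held a G-box (PIF5 and ELIP1) and 1, HY5, a PBE-box, 138 to 133 bases before its start, on the opposite strand. The PBE-box is in 11.1% of all windows. The evening element, in 2.36% of all windows, and the CCA1-binding site, in 6.69%, were in 0 of the 10 windows. The shorter core ACGT, which every G-box contains, was in 6 of the 10 and in 44.1% of all windows.

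PIL1 and HFR1 encode bHLH proteins of the same family whose genes are among those most quickly raised by shade, and HFR1 forms inactive pairs with PIFs and so holds their action back. PIL1 was near the lower end of what these libraries can measure, while HFR1 was low but above it, with 40 to 111 counts per library. PIL1 (AT2G46970, chr2:19295431-19297858, minus strand) had 22, 20 and 32 counts in mock, 2, 4 and 8 with flg22 and 6, 12 and 10 with 2-AA. Mock lay above every treated library, the treated groups overlapped, and flg22 replicate 1 lay below the floor of 3 counts. The log2 fold change was -2.29 with flg22 (SE 0.57, edgeR adjusted p = 0.00383), and -2.89 without flg22 replicate 3. With 2-AA it was -1.33 (SE 0.52, adjusted p = 0.0406). The 2-AA call ended when mock replicate 1 (-1.37), mock replicate 2 (-1.48), mock replicate 3 (-1.07), flg22 replicate 2 (-1.32), 2-AA replicate 1 (-1.06) or 2-AA replicate 3 (-1.31) was left out, and without the 3 libraries with most chloroplast reads (-1.39). It also ended with DESeq2 (adjusted p = 0.0646), with no filter on low counts (adjusted p = 0.0708) and against 1.5-fold (adjusted p = 0.15). The direct difference, 0.96, had a 95% interval from -0.39 to 2.31 (adjusted p = 0.351).

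HFR1 (AT1G02340, chr1:465616-467880, minus strand) stood at 1.67, 1.89 and 1.32 CPM in mock, at 1.71, 2.24 and 2.13 with flg22 and at 3.29, 3.12 and 3.42 with 2-AA. The 2-AA libraries lay above all others, and the mock and flg22 groups overlapped. With 2-AA it rose by 1.01 (SE 0.23, edgeR adjusted p = 0.00165), while with flg22 the log2 fold change of 0.31 was not called (SE 0.23, adjusted p = 0.261). The difference between the treatments themselves was 0.69 (SE 0.22, adjusted p = 0.053) and missed the threshold. It passed with DESeq2 (adjusted p = 0.044), with limma-voom (adjusted p = 0.0408) and without mock replicate 3 (0.70, adjusted p = 0.0475).

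HY5 and HYH, close relatives with shared targets, moved in opposite directions. HY5 (AT5G11260, chr5:3593335-3595073, minus strand) was at 22.9, 23.1 and 22.6 CPM in mock, at 46.3, 48.6 and 42.9 with flg22 and at 62.2, 62.6 and 64.7 with 2-AA. The 3 groups did not overlap, with mock lowest and 2-AA highest, and the coefficient of variation within mock was 1.13%. HY5 rose by 1.01 with flg22 (SE 0.063, edgeR adjusted p = 2.54e-08) and by 1.47 with 2-AA (SE 0.063, adjusted p = 7.71e-10). It was 0.46 higher with 2-AA than with flg22 (SE 0.061, adjusted p = 0.000228), a difference that was not called against 1.5-fold (adjusted p = 1).

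HYH (AT3G17609, chr3:6023844-6024710, plus strand) was at 55.3, 55.8 and 55.9 CPM in mock, at 35.8, 24.4 and 28.1 with flg22 and at 39.0, 37.8 and 43.0 with 2-AA. Mock was highest, 2-AA came next and flg22 was lowest, with no overlap. HYH fell by 0.92 with flg22 (SE 0.11, edgeR adjusted p = 9.37e-06) and by 0.48 with 2-AA (SE 0.11, adjusted p = 0.00179). The 2-AA fall was not called against 1.5-fold (adjusted p = 1). Against flg22, the level with 2-AA was 0.44 higher (SE 0.11, adjusted p = 0.0158). That call ended without flg22 replicate 2 (0.32), flg22 replicate 3 (0.41), 2-AA replicate 3 (0.38) or the 3 libraries with most chloroplast reads together (0.36), and against 1.5-fold (adjusted p = 1). Scaled to exon length, HY5 was at 0.255, 0.256 and 0.250 of the HYH level in mock, at 0.799, 1.23 and 0.943 with flg22 and at 0.984, 1.02 and 0.927 with 2-AA. The ratio was lower in every mock library than in any treated library, and the treated groups overlapped; ratios between genes were not tested.

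ELIP1 and ELIP2 encode early light-induced proteins, relatives of the chlorophyll-binding antenna proteins that accumulate in the thylakoid membrane under strong light and during greening, and both genes are known targets of HY5. They were the most abundant of the 10 genes in mock and had the deepest falls with flg22 among them. ELIP1 (AT3G22840, chr3:8084405-8085669, minus strand) was at 338, 265 and 337 CPM in mock, at 33.0, 23.9 and 30.9 with flg22 and at 62.0, 66.8 and 72.6 with 2-AA. ELIP2 (AT4G14690, chr4:8418242-8419325, plus strand) was at 679, 548 and 624 CPM in mock, at 30.6, 18.3 and 31.1 with flg22 and at 43.5, 46.5 and 79.0 with 2-AA. For both genes mock was highest and flg22 lowest, with no overlap between any of the groups.

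ELIP1 fell by 3.42 with flg22 (SE 0.13, edgeR adjusted p = 4.57e-10), which is 10.7-fold lower, and by 2.22 with 2-AA (SE 0.12, adjusted p = 5.92e-09), which is 4.66-fold lower. ELIP2 fell by 4.53 with flg22 (SE 0.25, adjusted p = 7.66e-09), 23.1-fold lower, and by 3.45 with 2-AA (SE 0.23, adjusted p = 3.54e-08), 10.9-fold lower. Both were higher with 2-AA than with flg22, ELIP1 by 1.2 (SE 0.12, adjusted p = 2.98e-05) and ELIP2 by 1.08 (SE 0.22, adjusted p = 0.00528). Against 1.5-fold the ELIP2 difference was not called (adjusted p = 0.184), and ELIP1 was the 1 gene of the 10 that kept its call in this comparison. HY5, the activator of these genes known from seedlings in light, was higher in the same libraries in which they were lower than mock. Its relative HYH, by contrast, was lower than mock in those libraries, as the ELIP genes were. These are RNA levels, and the part of either factor in the ELIP levels was not tested.

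The balance between the ELIP genes shifted too. Scaled to exon length, ELIP2 was at 2.29, 2.36 and 2.11 times the ELIP1 level in mock, at 1.05, 0.871 and 1.14 times with flg22, and at 0.799, 0.793 and 1.24 times with 2-AA. All mock libraries lay above all treated libraries, and the treated groups overlapped. The longest run shared by the exons of these paralogs is 26 bases. The 250 bases before each start are shown because the pair fell together. Capitals mark a G-box, and the windows are chr3:8085670-8085919 (ELIP1) and chr4:8417992-8418241 (ELIP2) in TAIR10.1, 5′ to 3′ on each gene's strand.
ELIP1: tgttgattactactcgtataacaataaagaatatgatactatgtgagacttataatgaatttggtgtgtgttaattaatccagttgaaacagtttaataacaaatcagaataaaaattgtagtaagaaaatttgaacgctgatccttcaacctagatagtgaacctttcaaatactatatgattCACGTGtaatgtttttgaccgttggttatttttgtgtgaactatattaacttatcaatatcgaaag
ELIP2: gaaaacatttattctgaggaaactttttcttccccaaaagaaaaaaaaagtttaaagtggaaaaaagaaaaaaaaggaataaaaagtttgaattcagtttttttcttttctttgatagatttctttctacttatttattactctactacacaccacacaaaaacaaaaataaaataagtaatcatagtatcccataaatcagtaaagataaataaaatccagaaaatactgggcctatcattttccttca
The ELIP1 window holds a G-box from 66 to 61 bases before the start, and the ELIP2 window, which is rich in runs of A and T, holds no CACGTG.

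**Figure D3:**
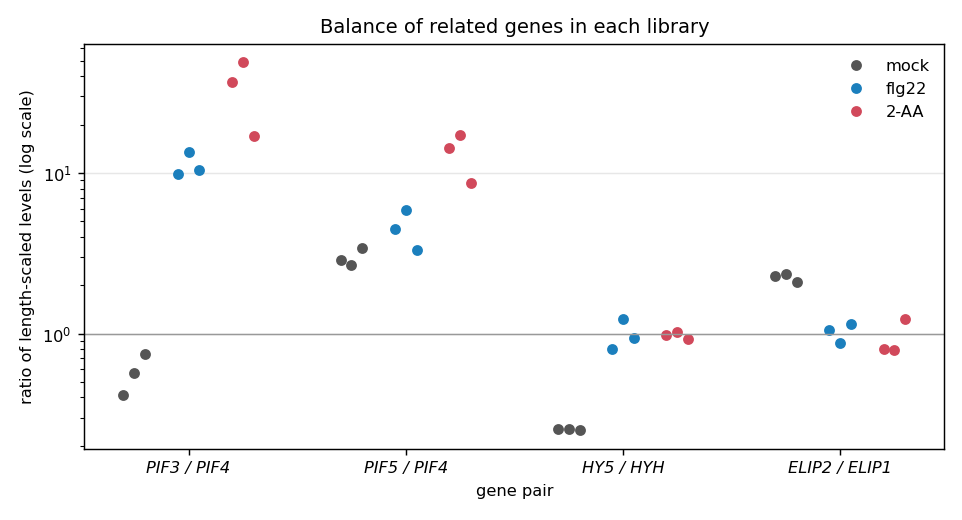
Ratio of length-scaled levels of 4 pairs of related genes in each library, on a log axis; points are libraries and the grey line marks equal levels. HY5 goes from 0.250 to 0.256 of the HYH level in mock to 0.799 to 1.23 of it in treated libraries, and PIF3 goes from below PIF4 to far above it.

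ATHB2 (AT4G16780, chr4:9449114-9450905, plus strand) encodes an HD-ZIP transcription factor and is a classic shade marker whose promoter PIFs bind. It was at 6.09, 6.57 and 5.30 CPM in mock, at 3.34, 4.27 and 3.76 with flg22 and at 4.34, 3.09 and 4.78 with 2-AA. Mock lay above every treated library, and the treated groups overlapped. It fell by 0.66 with flg22 (SE 0.19, edgeR adjusted p = 0.00926) and by 0.55 with 2-AA (SE 0.19, adjusted p = 0.0221). Neither fall was called against 1.5-fold (adjusted p = 0.436 and 0.692). The 2-AA call ended without mock replicate 1 (-0.53), mock replicate 2 (-0.47), 2-AA replicate 2 (-0.39) or the 3 libraries with most chloroplast reads (-0.46). Between the treatments the difference was 0.11, with a 95% interval from -0.31 to 0.53 (adjusted p = 0.767).

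The order of the 10 genes by length-scaled level (RPKM, CPM per kilobase of exon) differed between mock and treated seedlings. In mock it ran from ELIP2 (678 ± 72.6 RPKM, mean ± SD, n = 3) and ELIP1 (302 ± 40.6) through HYH (71.8 ± 0.461) and PIF5 (55.9 ± 6.51) to PIF4 (19.0 ± 4.06) and HY5 (18.2 ± 0.206). PIF3 (10.6 ± 1.55), ATHB2 (4.49 ± 0.483), HFR1 (1.07 ± 0.189) and PIL1 (0.464 ± 0.133) followed. Only the neighbours PIF4 and HY5 overlapped between libraries there.

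With flg22, HYH (38.0 ± 7.50 RPKM) and HY5 (36.6 ± 2.29) came first by mean and overlapped, followed by ELIP2 (29.3 ± 7.97), ELIP1 (28.3 ± 4.61) and PIF3 (23.4 ± 1.30), of which each overlapped with the next. HYH, at 31.5 to 46.2 RPKM, also overlapped with ELIP2 (20.1 to 34.2) and ELIP1 (23.1 to 31.9). The lowest HY5 value barely cleared the highest ELIP2 value (34.18 against 34.17), so the first 4 places were not clearly separated. With 2-AA, ELIP1 (64.8 ± 5.13), ELIP2 (62.0 ± 21.7), HYH (51.6 ± 3.55) and HY5 (50.3 ± 1.06) came first, again each overlapping with the next. PIF4 went from the fifth place in mock to the eighth with flg22 (2.11 ± 0.314) and the ninth with 2-AA (0.805 ± 0.359), and PIL1 was last in all 3 groups. PIF3 stood at 0.414 to 0.749 of the PIF4 level in mock, at 9.88 to 13.4 times it with flg22 and at 16.9 to 48.9 times it with 2-AA. The most abundant of the 3 PIFs was PIF5 in mock and PIF3 in both treated groups.

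Replicates of a group differed most for PIF4, PIL1 and ELIP2 with 2-AA and for PIL1 with flg22, with coefficients of variation of 44.6, 41.7, 35.0 and 64.5%. Among the 2-AA libraries, replicate 3 lay nearest the mock mean for 7 of the 10 genes. The same library had the highest level of the morning clock gene LHY in its group, at 5.46 CPM against 1.75 and 1.52. Among the flg22 libraries, replicate 1 lay nearest the mock mean for 5 genes, replicate 2 for 1 and replicate 3 for 4. There LHY was highest in replicate 3, at 8.22 CPM against 6.92 in replicate 1 and 2.93 in replicate 2. Clock genes differed widely between mock and the treated groups: of 11 clock genes, 10 were called with each treatment, 6 higher and 4 lower, where 59.2% and 62.2% of all genes tested were called. Between the treatments 0 of 11 were called by edgeR (5 at an unadjusted p under 0.05) and by DESeq2, and 1 by limma-voom. LHY was at 211 to 233 CPM in mock, 2.93 to 8.22 with flg22 and 1.52 to 5.46 with 2-AA. The evening gene TOC1 was at 26.7 to 32.0 CPM in mock, 224 to 245 with flg22 and 226 to 246 with 2-AA. CCA1, the partner of LHY, was at 126 to 154, 3.73 to 6.98 and 1.6 to 5.06 CPM, and PRR5, which represses both, at 1.67 to 1.84, 38.9 to 57.2 and 47.3 to 58.0 CPM. Mock thus stood apart from both treated groups in all 4 of these clock genes. The part of the clock in the levels of the 10 light-signalling genes was not tested.

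The wider pathway was described with 70 other genes in 7 roles, of which 67 had enough reads to test and 3 (PRE1, BBX23 and BBX31) did not. With flg22, 21 were higher and 26 lower than in mock (70.1% called), and with 2-AA 20 were higher and 28 lower (71.6% called), where 59.2% and 62.2% of all genes tested were called. Tested against 1.5-fold, 26 and 27 of them were called. The shares just given do not hold at that threshold, where far fewer of all genes tested were called too. Those counts are given with the processing below. Between the treatments, 4 were higher and 10 lower with 2-AA (20.9% called, against 15.8% of all genes tested). Without the 3 libraries with most chloroplast reads 9 were called, and the number called among all genes fell as well, as given below. The median log2 fold change of the 67 genes was -0.14 with flg22 and -0.094 with 2-AA.

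B-box factors, zinc-finger proteins that assist or oppose HY5, were called in 10 of 11 cases with each treatment, 3 higher and 7 lower (90.9% called, against 59.2% and 62.2% of all genes tested; median log2 fold change -1.59 and -1.51). BBX22, which acts with HY5, rose from 11.4 ± 0.943 CPM in mock to 58.8 ± 4.02 with flg22 and 116 ± 2.25 with 2-AA (n = 3 each). Its log2 fold changes were 2.36 (SE 0.076, edgeR adjusted p = 1.47e-10) and 3.34 (SE 0.078, adjusted p = 7.67e-12), and 0.98 between the treatments (SE 0.069, adjusted p = 1.35e-06). Like HY5, it rose with flg22 and was higher again with 2-AA. BBX24, which holds HY5 back, fell by 1.59 with flg22 (SE 0.075, adjusted p = 2.39e-09) and by 1.56 with 2-AA (SE 0.075, adjusted p = 1.8e-09).

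Of 7 other PIFs and HLH factors, 1 rose and 3 fell with flg22, and 1 rose and 4 fell with 2-AA (57.1% and 71.4% called, against 59.2% and 62.2% of all genes tested). The gene that rose was PAR1 with flg22 and PIF6 with 2-AA. PIF6 was near the floor, with 4 to 8 counts per library in mock and 17 to 20 with 2-AA. PIF1, which represses seed germination in darkness, fell by 1.34 with flg22 (SE 0.14, edgeR adjusted p = 2.32e-06) and by 1.98 with 2-AA (SE 0.14, adjusted p = 6.07e-08). The related bHLH gene UNE10 fell by 0.94 (SE 0.088) and 1.2 (SE 0.089). PAR1, an HLH protein that blocks PIF action in shade, rose by 0.47 with flg22 (SE 0.15) and was not called with 2-AA (-0.37, SE 0.15). Its level was lower with 2-AA than with flg22, a log2 fold change of -0.84 (SE 0.15, edgeR adjusted p = 0.00219). Of 11 shade and PIF target genes, 3 rose and 2 fell with flg22, and 4 rose and 3 fell with 2-AA, shares of 45.5% and 63.6% that lay below or near those of all genes tested. HAT1, an HD-ZIP relative of ATHB2, fell by 0.56 (SE 0.092) and 1.09 (SE 0.094), while its relative HAT3 rose by 0.78 (SE 0.13) and 0.75 (SE 0.13). YUC8, an auxin synthesis gene that PIF4 activates in warmth, rose by 0.59 with flg22 (SE 0.14) and by 1.41 with 2-AA (SE 0.14, edgeR adjusted p = 1.32e-06). Its level was 0.82 higher with 2-AA than with flg22 (SE 0.14, edgeR adjusted p = 0.00116).

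**Figure D4:**
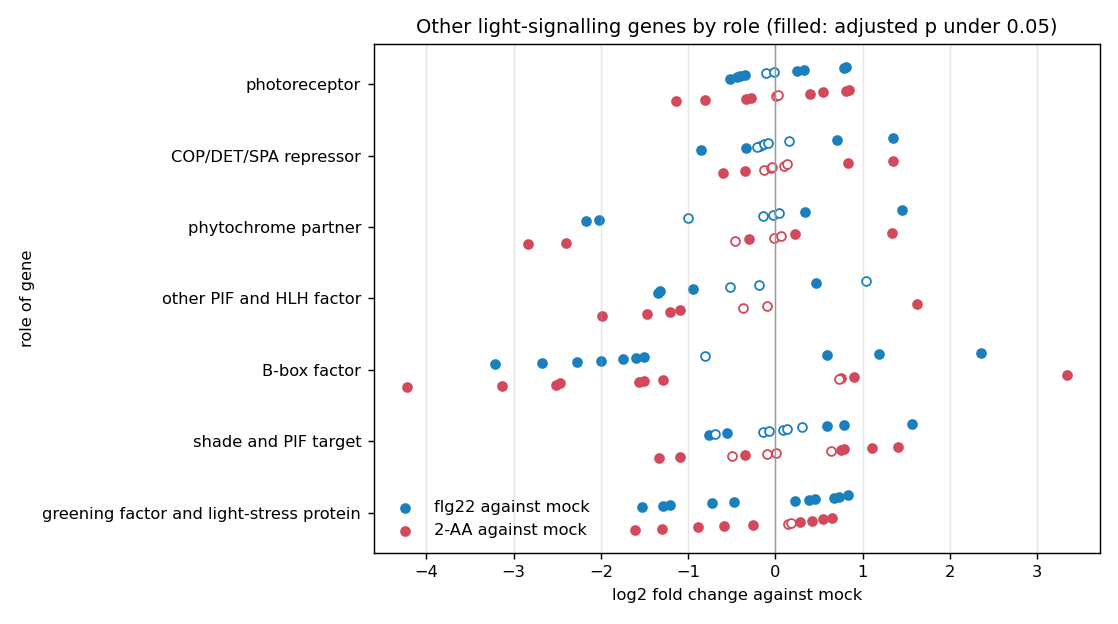
Log2 fold change against mock of the 67 other light-signalling genes tested, by role, with flg22 in blue and 2-AA in red; each point is a gene and filled points have an adjusted p under 0.05. B-box factors spread widest, from -4.22 to 3.34 (BBX22), both with 2-AA.

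Photoreceptor genes were split evenly. Of 10, 4 were higher and 4 lower with each treatment (80% called, against 59.2% and 62.2% of all genes tested; median log2 fold change -0.063 with flg22 and 0.018 with 2-AA). The blue-light receptor gene CRY2 rose by 0.79 with flg22 (SE 0.066, edgeR adjusted p = 3.31e-07) and by 0.84 with 2-AA (SE 0.066, adjusted p = 1.39e-07). The ultraviolet receptor gene UVR8 rose by 0.81 with flg22 (SE 0.075) and by 0.80 with 2-AA (SE 0.075). The phototropin gene PHOT2 fell by 0.52 with flg22 (SE 0.058) and by 0.80 with 2-AA (SE 0.058). PHOT1, the main receptor for bending towards light, was lower with 2-AA than with flg22 (log2 fold change -0.74, SE 0.10, adjusted p = 0.000331).

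Among 9 repressors of the COP, DET, SPA and RUP kind, 2 rose and 3 fell with flg22, and 2 rose and 2 fell with 2-AA, shares of 55.6% and 44.4% that lay below the 59.2% and 62.2% of all genes tested. RUP1, which turns UVR8 off, rose by 1.35 with either treatment (SE 0.12 each). Its relative RUP2 instead fell by 0.85 with flg22 (SE 0.10) and by 0.60 with 2-AA (SE 0.10). COP10, a partner of DET1, rose by 0.70 with flg22 (SE 0.11) and by 0.83 with 2-AA (SE 0.11). The COP1 partner SPA1 was 0.22 higher with 2-AA than with flg22 (SE 0.060, edgeR adjusted p = 0.024). Of 8 phytochrome partners, 2 rose and 2 fell with flg22, and 2 rose and 3 fell with 2-AA (50% and 62.5%, below and near those shares). PKS2, which links phytochromes and phototropins, fell by 2.17 (SE 0.16) and 2.84 (SE 0.16), and FHY1, which carries phytochrome A into the nucleus, rose by 1.45 (SE 0.11) and 1.34 (SE 0.11).

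Greening factors and light-stress proteins were called in 11 of 11 cases with flg22, 6 higher and 5 lower, and in 9 with 2-AA, 4 higher and 5 lower (100% and 81.8%, against 59.2% and 62.2% of all genes tested). GLK1 and GLK2, which drive expression of photosynthesis genes, were both lower. The log2 fold change of GLK1 was -1.53 with flg22 (SE 0.10) and -1.30 with 2-AA (SE 0.10). That of GLK2 was -1.20 with flg22 (SE 0.10) and -1.61 with 2-AA (SE 0.10, edgeR adjusted p = 1.89e-08). SEP1, a smaller relative of the ELIPs, rose by 0.73 with flg22 (SE 0.058, edgeR adjusted p = 2.21e-07) and by 0.65 with 2-AA (SE 0.058). Both changes went opposite to those of ELIP1 and ELIP2, but other genes listed in this role went either way. SEP2 (0.23 with flg22 and 0.28 with 2-AA) and OHP2 (0.39 and 0.42) rose. LIL3:1 rose with flg22 (0.45) and was not called with 2-AA (0.14). OHP (-0.48 and -0.59) and PSBS (-0.73 and -0.89) fell, as the ELIP genes did. SIG5, a light-induced sigma factor of the chloroplast polymerase, was at 51.3 ± 4.05 CPM in mock, 21.0 ± 3.49 with flg22 and 42.8 ± 1.2 with 2-AA (n = 3 each). Between the treatments it was 1.03 higher with 2-AA (SE 0.10, adjusted p = 2.67e-05).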

How the data were processed

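Whole-seedling RNA from 9 libraries (3 each of mock, flg22 and 2-AA) was analysed. Raw counts of reads at 32833 loci were deposited by the authors in 9 columns, of which 0 were left unused. Per the submitters' processing notes, Trimmomatic 0.36, HISAT2 and edgeR were used with the TAIR10 build; which program counted reads, on what annotation and whether by strand, is not given in the sources used here. The header's doubled tabs were read as 1 separator, which gives 9 names for 9 columns.

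Genes passing filterByExpr (minimum count 10, minimum total 15; 21059 genes) were scaled by TMM and fitted together with group means only in edgeR 4.0.16 (R 4.3.3; glmQLFit, glmQLFTest, two-sided). P-values were adjusted by Benjamini-Hochberg over all genes tested. The SE is the size of a log2 fold change divided by the square root of F. Alternatives were RLE scaling, DESeq2 1.42.0, limma-voom 3.58.1, no filter, a replicate block, a test against 1.5-fold and left-out libraries. Within each group, library pairs differed beyond counting noise (chi-square per degree of freedom 5.62 to 31.8). Floors cover counting error only.

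Coordinates and sequences are those of TAIR10.1, by locus code. No annotated gene overlaps any of the 10 genes. The 10 genes, the lists and the left-out libraries were chosen with earlier results of these data known. Of 71 further listed light genes, 1 was dropped because the reference does not give its name. The text names, per role, the 2 called genes with the smallest p in each comparison with mock and the 1 with the smallest p between the treatments, and the 10 genes throughout. PIF6, SEP2, OHP2, LIL3:1, OHP and PSBS are named as well, for low counts or for their directions.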

Additional observations from a re-analysis of the deposited data

How the results depend on the processing

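The directions of the 10 genes against mock were the same under every alternative run, and most calls were too; the calls that ended are given beside the genes. Against 1.5-fold, 4836 of the 21059 genes tested were called with flg22 and 5586 with 2-AA, each against mock, and 473 between the treatments. These stand in place of 12457, 13103 and 3317. Of the 10 genes, 1 was then called between the treatments, and of the 67 other light genes tested 26, 27 and 2. Without the 3 libraries with most chloroplast reads, 2090 genes and 9 other light genes were called between the treatments, in place of 3317 and 14. Leaving out 1 library at a time gave 2204 to 3392 genes in that comparison. There, small differences that were not called changed sign: PIF3 (without flg22 replicate 3, -0.029; without 2-AA replicate 1, -0.018; without 2-AA replicate 2, -0.048; without the 3 libraries, -0.020; range without 1 library -0.048 to 0.11), PIF5 (without flg22 replicate 3, -0.15; without 2-AA replicate 3, -0.027; range -0.15 to 0.14) and ATHB2 (without 2-AA replicate 3, -0.023; range -0.023 to 0.27). The cause was not tested. With the replicate number as a block, 12264, 12918 and 3082 genes and 9, 10 and 5 of the 10 genes were called. Deviations of same-numbered libraries from their group means were weakly related (r from -0.12 to 0.17 over genes). Replicates 2 and 3 of 2-AA matched the same-numbered flg22 library best, and flg22 replicate 1 matched mock replicate 1 best. The remaining matches were best with another number. With 3 libraries per group, these values cannot decide whether the numbers pair the libraries. Of the 10 genes, PIL1, with 2 to 32 counts per library, is where depth limits the values most.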

Other observations

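Genes whose levels followed those of 3 of the 10 genes most closely were found by Pearson's r of log2 CPM over the 9 libraries. These values describe the pattern over all 3 groups, which differ in mean, and the genes were taken as the 3 with the highest r. For PIF4 they included another PIF, PIF1 (r = 0.997; 32.6 CPM in mock, 12.9 with flg22 and 8.22 with 2-AA), beside AT5G46430 (r = 0.997; 282, 193 and 160 CPM) and AT4G39200 (r = 0.995; 393, 269 and 235 CPM). For HY5 they were the cytochrome P450 gene CYP72A13 (r = 0.999; 88.6, 293 and 477 CPM), the drought-response factor gene DREB2A (r = 0.997; 1.67, 18.5 and 60.5 CPM) and the NAC factor gene NAC102 (r = 0.997; 29.5, 99.8 and 188 CPM). For ELIP1 they were AT5G35680 (r = 0.994; 70.9, 45.7 and 54.1 CPM), Hop2 (r = 0.993; 103, 51.9 and 65.4 CPM) and GDU1 (r = 0.993; 16.8, 5.74 and 8.55 CPM).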
